A study of Mus musculus with 12 samples.

Results

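Interferon-stimulated genes are the genes that a cell switches on after an interferon has bound its receptor, and 40 of them were described in splenic lymphocytes at rest. The 40 genes were chosen by name and matched 1 row each among the 41128 genes of the table. All 40 passed the filter on low values, which asked that 3 or more libraries reach an adjusted TPM of 1 and left 12520 genes for the tests. Messenger and noncoding RNA of C57BL/6J mice aged 6 to 8 weeks was sequenced in 12 libraries, which form 4 groups of 3. They are resting B cells without the surface protein CD43 from females (female B cell 1 to 3) and from males (male B cell 1 to 3), and naive T cells with CD4 and CD62L from females (female T cell 4 to 6) and from males (male T cell 4 to 6). The labels name no treatment or mutation in any group, and the T cells were taken by beads and then by a sort of cells high in CD62L, low in CD44 and negative for CD25. The design text of the series calls the replicates pools, so a p-value measures the spread between pools. The comparisons ask how high these genes stand in either cell type without a stimulus, whether the sexes differ, and whether the genes move together from pool to pool.

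Type I interferons signal through a receptor made of IFNAR1 and IFNAR2 and the kinases JAK1 and TYK2 to a complex that includes STAT2 and IRF9 and binds interferon-stimulated response elements in promoters. Interferon gamma signals through its own receptor with JAK1 and JAK2, and its targets carry gamma-activated sequences. Many of the genes are also read at a low level without infection, and lymphocytes are known to carry such a baseline, or tonic, level of interferon response.

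The unit was the adjusted TPM, a length-corrected share of transcripts that the authors rescaled further between libraries, so levels of different genes can be compared. The depth of the libraries is unknown. Totals of adjusted TPM ran from 561020 to 1453940 over the 12 libraries, and 1 noncoding RNA, Yam1 or Rn7sk, took 11.4% to 37.4% of a total. The summed level of 5 B cell markers was 2610 to 2972 in B and 0.90 to 5.34 in T libraries, and that of 5 T cell markers was 9.76 to 14.1 in B and 1017 to 1194 in T libraries, as labelled. Of 7 markers of plasmacytoid dendritic cells, which are known as strong interferon producers, Siglech and Clec10a were at or near 0 in every library. Of the same 7, 4 reached 1 in some B library and 3 in some T library. The sums over all 7 were 189.7 to 231 in B and 18.6 to 20.1 in T libraries. The list also held Ccr9, Klk1, Pacsin1 and, as genes that B cells also express, Irf8 and Tcf4. Irf8 alone ran from 142 to 185 in B and from 1.31 to 2.17 in T libraries. In bulk RNA, fewer cells that express a gene and less RNA of it per cell cannot be told apart.

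Several of the genes are neighbours or copies of each other. On GRCm38, Gbp7 (chromosome 3, 142530342 to 142550149), Gbp3 (142560026 to 142573209) and Gbp2 (142620602 to 142638008) follow each other on the plus strand. Ifit2, Ifit3 and Ifit1 lie together on chromosome 19, Oas2, Oas3 and Oas1a as well as Oasl2 and Oasl1 on chromosome 5, and Parp14, Dtx3l and Parp9 on chromosome 16. Rsad2 and Cmpk2 point away from each other on chromosome 12 with 12751 bases between them, and Dtx3l and Parp9 overlap on opposite strands, which the strand-specific libraries keep apart only if the counting used strand. In 10 of the 40 genes a stretch of at least 200 bases of transcript was at least 95% identical to another gene, and their values are uncertain where reads were split. These are Ifit3 (1700 bases, 97.8%, with Ifit3b), Oas1a (1861 bases, 97.6%, with Oas1g), Sp100 (with Gm7609), Mx1 (with Mx2), Trim30a (with Trim30d), Isg15, Samd9l and, through overlapping gene models on their own strand, Rtp4, Herc6 and Gbp7.

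The promoters are shown because the genes were chosen as targets of 1 pathway, and its binding motif can be read in them. RefSeq windows of 300 bases (GRCm38, 250 before and 50 after the start) were given for 31 of the 40 genes, and not for Usp18, Zbp1, Mx1, Parp9, Rtp4, Parp14, Iigp1, Oas2 and Dhx58. The core of the interferon-stimulated response element, GAAANNGAAA on either strand, stood in the windows of 17 of the 31 genes (54.8%), against 1079 of the 27025 genes with a window (3.99%). The core of the gamma-activated sequence, TTCNNNGAA, which reads the same on both strands, stood in 9 of the 31 (29.0%), against 9.55% of all genes. The first motif was in 9 of 16 genes that were higher in T cells, in 4 of 8 that were higher in B cells and in 4 of 7 that were not called. The 130 bases before the RefSeq start are printed for 5 genes, 5′ to 3′ on the strand of the gene, with the first motif in capitals. Ifit1, Igtp and Gbp7 were higher in T cells, and Gbp3 and Trim30a in B cells.
Ifit1 (chr19:34640759-34640888, plus strand): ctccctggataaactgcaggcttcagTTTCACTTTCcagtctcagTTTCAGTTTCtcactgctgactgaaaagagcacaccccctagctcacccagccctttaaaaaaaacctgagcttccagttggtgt
Igtp (chr11:58199426-58199555, plus strand): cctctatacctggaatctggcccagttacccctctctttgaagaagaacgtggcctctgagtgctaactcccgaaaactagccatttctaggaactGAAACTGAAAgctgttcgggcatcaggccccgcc
Gbp7 (chr3:142530206-142530335, plus strand): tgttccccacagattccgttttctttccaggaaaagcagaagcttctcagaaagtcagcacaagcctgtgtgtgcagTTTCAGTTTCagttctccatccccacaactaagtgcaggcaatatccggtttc
Gbp3 (chr3:142559914-142560043, plus strand): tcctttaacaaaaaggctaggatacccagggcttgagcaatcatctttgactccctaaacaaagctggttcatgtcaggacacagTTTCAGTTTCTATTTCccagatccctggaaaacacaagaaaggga
Trim30a (chr7:104465194-104465323, minus strand): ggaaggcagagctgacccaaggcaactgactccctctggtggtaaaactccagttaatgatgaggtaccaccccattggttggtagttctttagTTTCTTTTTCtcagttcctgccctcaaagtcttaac
Ifit1 held 2 copies of the motif, 104 and 85 bases before the start. In Gbp3 a pair of copies overlapped, 45 and 39 bases before the start. In Gbp7 the motif stood 53 bases before the start, in Igtp 34 and in Trim30a 36. Gbp7 and Gbp3, neighbours that differed in opposite directions between the cell types, both held the motif near the start.

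RNA of most of the 40 genes was present in both cell types, and whether it reflects a tonic interferon response was not tested. The median of the 40 gene means was 10.8 adjusted TPM in B cells and 18.3 in T cells, beside 10.7 and 10.9 over all 12520 genes tested. A mean of at least 10 was reached by 22 of the 40 genes in B and 25 in T cells (51.8% and 52.1% of all tested genes), and a mean under 1 was seen for 2 genes in B (Iigp1, Ifi44) and 1 in T cells (Ifitm3).

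The highest level in both cell types was that of Sp100, a scaffold protein of nuclear bodies, whose lowest, median and highest adjusted TPM were 239, 252 and 266 in B and 203, 228 and 231 in T libraries. Samd9l, a cytosolic restriction factor and brake on growth, came second with 157, 208 and 227 in B and 72.6, 99.7 and 123 in T libraries. For both genes the B libraries lay above the T libraries, by a narrow gap for Sp100 and a wide one for Samd9l.

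Next in B cells came Trim30a, a ubiquitin ligase of the TRIM family (76.2 ± 8.74, SD, n = 6), Ddx58, which encodes the RNA sensor RIG-I (59.1 ± 3.29), Irf9, a DNA-binding part of the complex with STAT2 (56.7 ± 7.43), and Irgm1, a GTPase that regulates its relatives on membranes (52.3 ± 10.5). In T cells the third to sixth places were held by Igtp, a GTPase of the same family (89.4 ± 6.89, SD, n = 6), Irf9 (70.6 ± 5.56), Ddx58 (63.1 ± 4.07) and Trim30a (62.8 ± 5.56). In B cells the mean of Irf9 lay within its SD of those of Ddx58 and Irgm1, so the order of these genes is not resolved, while Trim30a stood apart from Ddx58. In T cells Ddx58, Trim30a and the seventh gene, Irgm1 (62.5 ± 6.14), were closer than their SDs. Samd9l (99.9 ± 17.4) and Igtp differed in T cells by less than the SD of Samd9l, and Samd9l was the lower of them in male T cell 4 (72.6 and 81.3). At the low end the deposited intervals were wide. For Iigp1 in B cells the upper bound was a median of 2.81 times the lower one, and for Ifitm3 in T cells 3.96 times, while for genes such as Sp100 the ratio was 1.05.

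**Figure D1:**
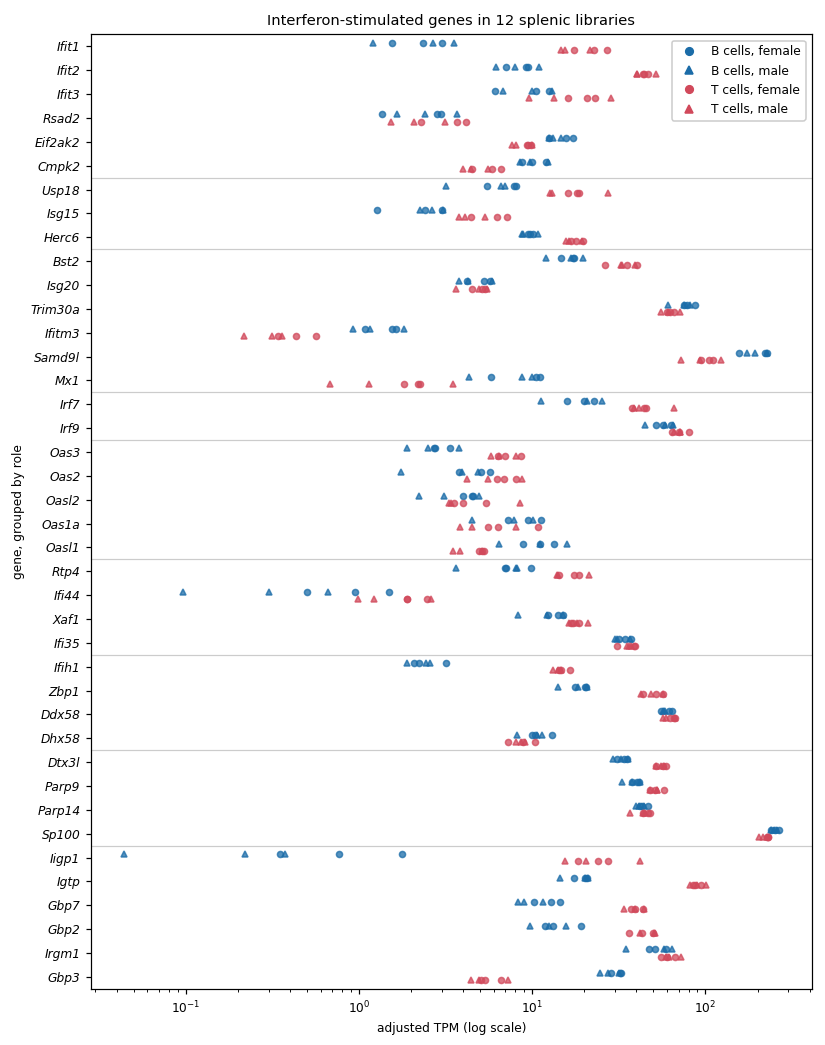
Adjusted TPM (x axis, log scale) of the 40 interferon-stimulated genes (y axis, grouped by role), 1 point per library, blue for the 6 B and red for the 6 T cell libraries, circles for females and triangles for males. Sp100 and Samd9l stand highest in both cell types, and Iigp1 runs from 0.0438 to 1.77 in B cells against 15.4 to 42.0 in T cells.

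Between the cell types the genes did not move as a block. Of the 40 genes, 22 were higher in T cells and 10 higher in B cells by limma at a Benjamini-Hochberg adjusted p under 0.05, and 8 were not called. Over all genes tested, 41.6% were called higher in T cells and 31.4% higher in B cells. With a log2 difference of at least 1 as well, 13 genes were higher in T cells and 3 in B cells, where 9.76% and 11.8% of all genes passed. The 6 libraries of either cell type did not overlap for 18 genes higher in T cells and 8 higher in B cells, where 29.7% and 24.2% of all genes did so. The median difference, B minus T cells in log2(adjusted TPM + 1), was -0.45 over the 40 genes and -0.09 over all genes. The scale with 1 added understates the change of low genes. The plasmacytoid sums above, the sums of 5 monocyte and macrophage markers (13.6 to 22.2 in B, 2.52 to 6.90 in T libraries) and those of 3 erythroid markers (0.912 to 198.2 and 2.45 to 43.8) also differed or varied between libraries, and their part in the differences was not tested.

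**Figure D2:**
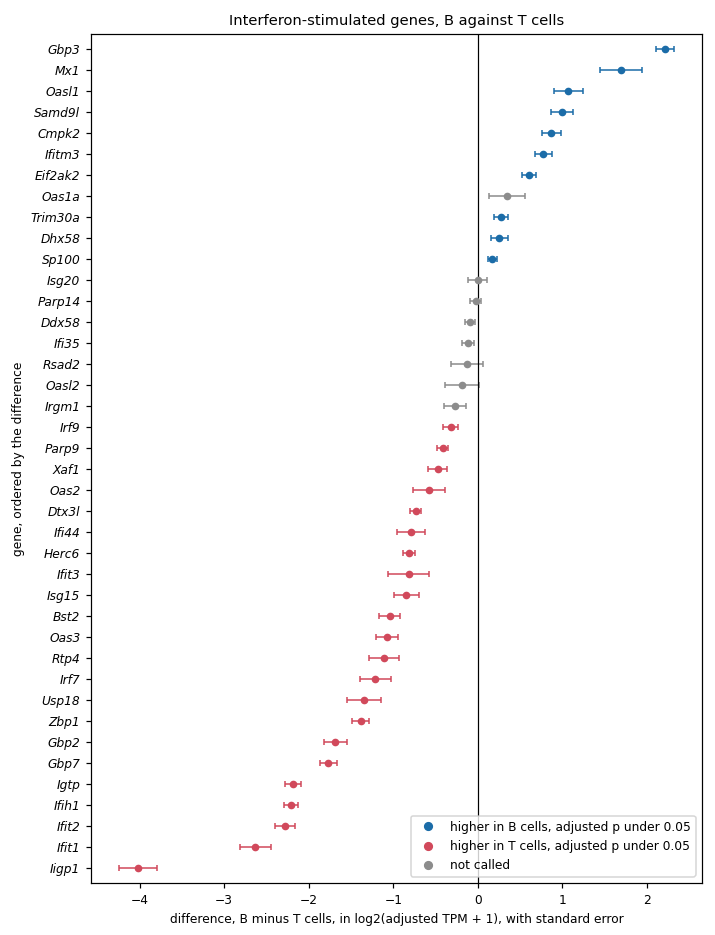
Difference between B and T cells in log2(adjusted TPM + 1), with its standard error, for the 40 genes in order, blue where higher in B cells, red where higher in T cells and grey where not called. The genes run from -4.02 for Iigp1 to 2.21 for Gbp3.

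The GTPases of the GBP and IRG families, which attack the vacuoles of intracellular microbes, held the widest differences in either direction. Iigp1 had the lowest, median and highest adjusted TPM of 0.0438, 0.363 and 1.77 in B and 15.4, 22.3 and 42.0 in T libraries, a difference of -4.02 ± 0.23 (SE) on the log2 scale (limma adjusted p = 4.01e-09). It was under 1 in all B libraries but female B cell 2, so it passed the filter only through the group where it is high. Every T library lay above every B library. Iigp1 is among the 22 genes called higher in T cells and the 18 without overlap.

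Igtp had 14.4, 20.2 and 20.9 in B and 81.3, 88.3 and 100.5 in T libraries (-2.19 ± 0.09, limma adjusted p = 1.48e-10). Gbp7 had 8.31, 10.9 and 14.4 in B and 33.9, 39.3 and 44.3 in T libraries (-1.77 ± 0.10, limma adjusted p = 3.73e-09), and Gbp2 9.67, 12.8 and 19.1 in B and 36.0, 46.3 and 51.1 in T libraries (-1.68 ± 0.13, limma adjusted p = 1.20e-07). In all of these the T libraries lay above the B libraries without overlap.

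Gbp3, which lies between Gbp7 and Gbp2, went the other way with 24.5, 30.1 and 32.5 in B and 4.41, 5.23 and 7.20 in T libraries (difference 2.21 ± 0.11, limma adjusted p = 6.28e-10), and every B library exceeded every T library. Irgm1 overlapped between the cell types and was not called (-0.27 ± 0.13, limma adjusted p = 0.0768). Without male B cell 1 it was called higher in T cells (-0.36, limma adjusted p = 0.0219).

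Of the genes that block viral RNA and its translation, Ifit1, Ifit2 and Ifit3 were higher in T cells and Eif2ak2 and Cmpk2 higher in B cells. Ifit1, which binds viral RNA that lacks the host's cap marks, had 1.21, 2.50 and 3.52 in B and 14.6, 19.4 and 27.0 in T libraries (-2.63 ± 0.18, limma adjusted p = 2.99e-08). Its relative Ifit2 had 6.21, 8.55 and 10.97 in B and 40.0, 44.1 and 52.0 in T libraries (-2.28 ± 0.12, limma adjusted p = 1.45e-09). No B library reached a T library in either gene.

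Ifit3, their binding partner, ran from 6.14 to 13.1 in B cells and from 9.57 to 28.6 in T cells, so the cell types overlapped, and its difference was -0.82 ± 0.24 (limma adjusted p = 0.00916; within males the difference was not called). Eif2ak2, the kinase PKR that stops translation when it binds double-stranded RNA, was at 12.5, 13.9 and 17.3 in B and 7.64, 9.40 and 9.96 in T libraries (0.60 ± 0.08). Cmpk2, a mitochondrial nucleotide kinase, was at 8.48, 9.84 and 12.4 in B and 3.97, 5.02 and 6.61 in T libraries (0.87 ± 0.12). Both were called without overlap, whereas Rsad2, the neighbour of Cmpk2 and the gene of viperin, which makes a chain-terminating nucleotide, overlapped and was not called (means 2.48 and 2.81, -0.13 ± 0.19).

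The 3 genes of the ISG15 system were all higher in T cells without overlap. Isg15, a ubiquitin-like modifier, had 1.26, 2.53 and 3.04 in B and 3.80, 4.88 and 7.18 in T libraries (-0.85 ± 0.14, limma adjusted p = 1.73e-04). Usp18, which removes ISG15 and damps the type I receptor, had 3.19, 6.78 and 8.01 in B and 12.7, 17.2 and 27.2 in T libraries (-1.35 ± 0.20, limma adjusted p = 5.31e-05). Herc6, the mouse ligase for ISG15, had means of 9.58 and 17.6 (-0.81 ± 0.07).

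The oligoadenylate synthetases, which make the messenger that activates RNase L, were split. Oas3 was higher in T cells (1.88, 2.72 and 3.80 in B and 5.77, 6.67 and 8.60 in T libraries, difference -1.07 ± 0.12), and so was Oas2 (means 4.18 and 6.60, -0.58 ± 0.19, limma adjusted p = 0.0157), whose call was lost within females and with totals made equal between libraries. Oasl1, a relative without the enzyme activity that represses translation of Irf7, was higher in B cells with 6.45, 11.1 and 15.8 in B and 3.48, 5.03 and 5.25 in T libraries (1.07 ± 0.17, limma adjusted p = 8.93e-05). Oasl2 and Oas1a overlapped and were not called (-0.19 ± 0.20 and 0.35 ± 0.21). Without male B cell 3 or without male T cell 6, Oas1a was called higher in B cells (0.49 and 0.49, limma adjusted p = 0.0414 and 0.0489).

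Among the sensors, Ifih1, which encodes MDA5, a detector of long double-stranded RNA, had 1.90, 2.33 and 3.17 in B and 13.2, 14.5 and 16.6 in T libraries (-2.21 ± 0.09, limma adjusted p = 8.12e-11). Zbp1, a sensor of left-handed nucleic acid that can start cell death, had 14.0, 19.3 and 20.7 in B and 42.7, 50.05 and 56.8 in T libraries (-1.39 ± 0.10, limma adjusted p = 5.68e-08). In both genes all T libraries lay above all B libraries. The other RNA helicase of the list, Ddx58, was not called (means 59.1 and 63.1, -0.09 ± 0.05). Dhx58, their regulator LGP2, was called slightly higher in B cells (0.25 ± 0.10, limma adjusted p = 0.0367), but not with the replicate number as a block (limma adjusted p = 0.0797), without a filter on low values (limma adjusted p = 0.0654), within females (limma adjusted p = 0.0710) or within males (limma adjusted p = 0.252), and not in 7 of the 12 fits that left out 1 library, those without female B cell 3, male B cell 1 or 2, female T cell 5 or 6 or male T cell 4 or 5 (limma adjusted p = 0.0584 to 0.0945).

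Both transcription factors were called higher in T cells. Irf7, the factor that amplifies interferon alpha production, had 11.3, 20.4 and 25.4 in B and 37.8, 42.8 and 66.2 in T libraries (-1.21 ± 0.18, limma adjusted p = 5.85e-05), without overlap. Irf9 overlapped (-0.32 ± 0.09, limma adjusted p = 0.00665), and the sign of its difference turned with totals made equal between libraries (0.06).

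Of the membrane and restriction factors, 4 were higher in B cells and 1 in T cells. Mx1, a dynamin-like GTPase against influenza that carries a deletion in most inbred strains, C57BL/6 among them, had 4.29, 9.36 and 11.1 in B and 0.684, 2.00 and 3.48 in T libraries (1.69 ± 0.25, limma adjusted p = 4.69e-05). Samd9l differed by 1.00 ± 0.13 (limma adjusted p = 1.69e-05). Neither gene overlapped.

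Ifitm3, which blocks viral entry by membrane fusion, was low in both cell types, with 0.918, 1.35 and 1.81 in B and 0.216, 0.348 and 0.566 in T libraries, and higher in B cells (0.77 ± 0.10, limma adjusted p = 1.37e-05). It reached 1 in 5 libraries, all of B cells, so it passed the filter only through the group where it is high. It is among the 10 genes called higher in B cells and the 8 without overlap. Trim30a was higher by 0.27 ± 0.08 with overlap (limma adjusted p = 0.0101), a call that was lost within males. Bst2, the tetherin that holds budding viruses at the surface, was higher in T cells with 11.95, 17.0 and 19.6 in B and 26.2, 34.3 and 40.4 in T libraries (-1.04 ± 0.12). Isg20, an exonuclease, had means of 4.84 in B and 4.84 in T cells and was not called.

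In the PARP and nuclear body group, Dtx3l and Parp9, which form a ubiquitin ligase and ADP-ribosyltransferase pair, were both higher in T cells, with means of 33.0 against 55.5 (-0.74 ± 0.06) and 38.6 against 51.7 (-0.42 ± 0.07), and both calls were lost with totals made equal between libraries. Sp100 was higher in B cells by 0.17 ± 0.06 (limma adjusted p = 0.0137), a call that was lost within females, and Parp14, another ADP-ribosyltransferase, was not called (-0.03 ± 0.06). Of the remaining genes, Rtp4, a chaperone of membrane receptors (7.30 and 16.6, -1.11 ± 0.18), Xaf1, a partner of an inhibitor of apoptosis (12.9 and 18.004, -0.48 ± 0.12), and Ifi44 (0.665 and 1.84, -0.79 ± 0.17) were higher in T cells. Ifi44 overlapped, from 0.0963 to 1.48 in B and from 0.982 to 2.60 in T libraries. It reached 1 in a single B library, so it too passed the filter only through the group where it is high. The call of Xaf1 was lost within females and with totals made equal between libraries. Ifi35 was not called (-0.12 ± 0.07), except without female T cell 6 (-0.17, limma adjusted p = 0.0329).

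Of 49 other genes of the pathway 38 were tested, and 17 were higher in B cells, 15 higher in T cells and 6 not called, where 31.4% and 41.6% of all genes were called higher in B and in T cells. With a log2 difference of at least 1 as well, 11 were higher in B and 5 in T cells (11.8% and 9.76% of all genes). The libraries did not overlap for 17 genes higher in B and 11 higher in T cells (24.2% and 29.7% of all genes). All 10 interferon ligands on the list were under the filter. The highest of them were Ifng, with at most 0.307 in B and 0.107 in T cells, and Ifnk, with at most 0.296 and 0.318.

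The receptor chains Ifnar1 and Ifnar2 were slightly higher in T cells (-0.24 ± 0.05 and -0.19 ± 0.05), with means of 47.7 and 56.5 for Ifnar1. Stat2, the partner of IRF9, was higher in B cells, with means of 22.5 and 12.1 (0.85 ± 0.07).

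The 4 widest differences toward B cells were those of Irf8 (6.01 ± 0.09), Irf5 (5.73 ± 0.09), the DNA receptor Tlr9 (4.69 ± 0.09) and Irf4 (4.52 ± 0.11), all genes with known roles in B cells. Toward T cells they were those of Ikbke, a kinase that activates interferon regulatory factors (-4.19 ± 0.09), the receptor inhibitors Socs3 (-2.82 ± 0.19) and Socs1 (-1.71 ± 0.10), and Mb21d1, the DNA sensor cGAS (-1.31 ± 0.07). Each of these 8 was past the threshold by limma. Tlr9 passed the filter only through B libraries and Mb21d1 only through T libraries.

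Between females and males no gene of the 40 was called by limma in B cells (0 of 40, with 0.144% of all genes called), in T cells (0 of 40, with 0.104% of all) or in the difference between the sex effects (0 of 40, with 0% of all). At an unadjusted p under 0.05 there were 2 in B cells, 0 in T cells and 0 in the difference, beside 373, 319 and 295 of all 12520 genes. The 2 genes were Gbp7 and Ifi44, named after their values were seen. Gbp7 had 10.2, 14.4 and 12.8 in female B cell 1 to 3 and 11.6, 8.96 and 8.31 in male B cell 1 to 3, and Ifi44 had 0.502, 0.941 and 1.48 and 0.666, 0.301 and 0.0963. In both genes female and male pools overlapped.

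The female mean exceeded the male mean on the log2 scale for 36 of the 40 genes in B and 31 in T cells, with median differences of 0.08 and 0.08 (over all genes -0.01 and 0.00). No gene separated 3 female from 3 male pools, in B cells (3.35% of all genes did so with females higher and 3.85% with males higher) or in T cells (4.4% and 4.09%). The genes moved together within a pool, so these counts are not 40 separate observations. Male B cell 3 lowers the male mean in B cells, as 39 of the 40 genes lay below their group mean in it (median deviation -0.29). Male T cell 6 raises the male mean in T cells, as 38 lay above theirs (median 0.21). The counts of genes with a higher female mean were not taken without these pools, nor over all genes.

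From pool to pool the genes moved together. Each value was set against the mean of its own group of 3, in log2(adjusted TPM + 1). Over the 12 libraries, the 780 pairs of the 40 genes had a median Pearson r of 0.62, and 760 of the pairs were positive. Over pairs of all tested genes the median r was 0.03. These r describe 12 deviations that come from shared libraries and sum to 0 within each group. Within the 6 B libraries the median was 0.64 (all genes 0.05) and within the 6 T libraries 0.74 (all genes 0.03).

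**Figure D3:**
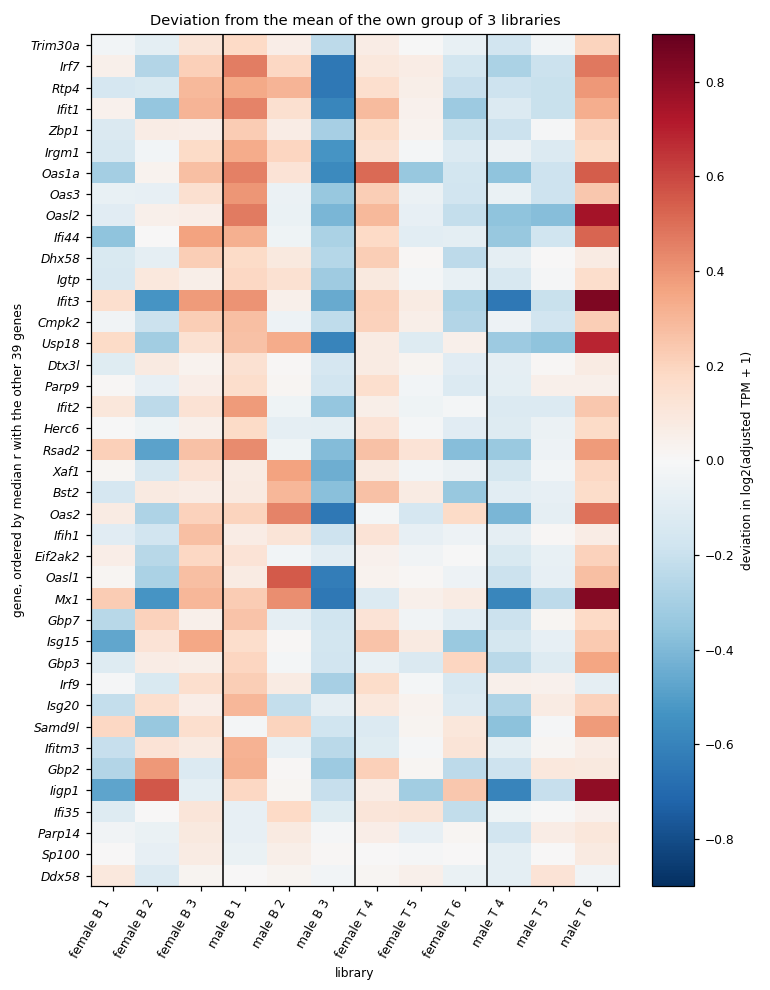
Deviation of each gene (rows, ordered by the median r with the other genes) from the mean of its own group of 3 in each of the 12 libraries (columns), in log2(adjusted TPM + 1), red above and blue below. The column of male B cell 3 is blue for 39 of the 40 genes, and that of male T cell 6 is red for 38.

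The widest swings were those of male pools. In male B cell 3, 39 of the 40 genes lay below their group mean (median deviation -0.29), and it was the lowest of the 3 male B libraries for 37 genes, against 29.9% of all tested genes. In male T cell 6, 38 lay above the mean (median 0.21) and it was the highest of its group for 37, against 39.6% of all genes. In male B cell 1, 36 lay above (median 0.21) and it was the highest of its group for 28, against 42.0% of all genes. In male T cell 4, 39 lay below (median -0.17). Among females, 38 genes lay above the mean in female B cell 3 (median 0.14) and 35 in female T cell 4 (median 0.11), and 31 lay below it in female T cell 6 (median -0.10).

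The share of all genes above the group mean was between 39.1% and 59.4% in every library, so the swing of the 40 genes was not that of the table as a whole. With median-ratio scaling 39 genes lay below the mean in male B cell 3 and 38 above it in male T cell 6. With the total of each library set to 1000000 the numbers were 38 and only 10, since all genes shifted by a median of -0.38 in male T cell 6 and the 40 genes by -0.19. On that scale the median r of all genes was 0.74 and that of the 40 genes 0.73, so the median r does not set the 40 genes apart there. In male B cell 3 on the same scale, the 40 genes shifted by a median of -0.28 and all genes by 0.03.

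**Figure D4:**
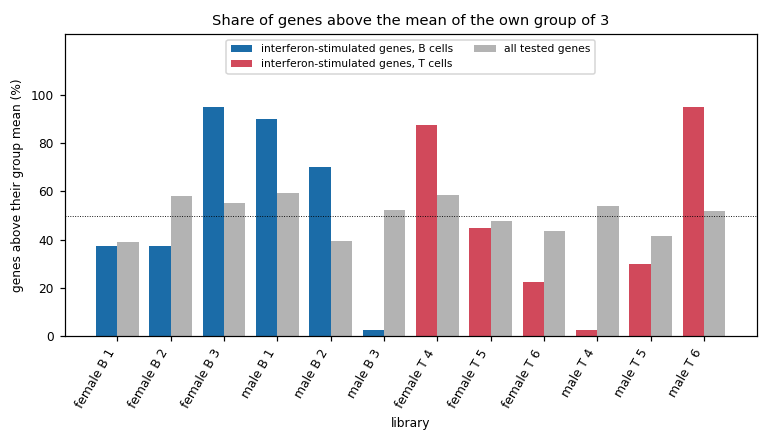
Share of genes above the mean of their own group of 3 (y axis, percent) in each library, blue for the 40 genes in B and red in T cells, grey for all 12520 tested genes. The 40 genes range from 2.5% in male B cell 3 and male T cell 4 to 95% in female B cell 3 and male T cell 6, and all genes from 39.1% to 59.4%.

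Single genes show the size of the swing. Mx1 had 8.69, 10.04 and 4.29 in male B cell 1 to 3 and 0.684, 1.15 and 3.48 in male T cell 4 to 6. Usp18 had 6.58, 6.98 and 3.19 and 13.0, 12.7 and 27.2 in the same libraries, and Oasl2 4.91, 3.10 and 2.21 and 3.39, 3.33 and 8.52. In all of them male B cell 3 was the lowest of its group and male T cell 6 the highest of its own.

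Irf7 had 25.4, 20.8 and 11.3 in male B cell 1 to 3 and 38.6, 41.3 and 66.2 in male T cell 4 to 6, where female T cell 4 to 6 had 45.5, 44.4 and 37.8. Male T cell 6 thus stood above the other T libraries. The genes with the widest spread within groups, pooled over the 4 groups, were Mx1 (SD 0.52 on the log2 scale), Ifit3 (0.51), Iigp1 (0.48), Oas1a (0.44), Usp18 (0.42) and Oasl2 (0.42). The median over the 40 genes was 0.23, against 0.13 over all tested genes, and 34 of the 40 lay above the median of all genes.

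The genes differed in how closely they followed the others. Trim30a had a median r of 0.82 with the other 39 genes, and Irf7 and Rtp4 each had 0.79. The closest pair was Oasl1 and Xaf1 (r = 0.98), followed by Irf7 and Trim30a (r = 0.97), each over the 12 libraries. Among the groups by role, the pairs of Ifit1, Ifit2, Ifit3, Rsad2, Cmpk2 and Eif2ak2 had the highest median r, 0.86 (15 pairs, 0.76 to 0.94). Rsad2 and Cmpk2, which differed in their call between the cell types, are in this group.

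Over the 12 libraries the loosest were Ddx58 (median r 0.20), Sp100 (0.32), Parp14 (0.36) and Ifi35 (0.38), and the 6 pairs of Parp9, Parp14, Dtx3l and Sp100 had a median of 0.28. The SD within groups was 0.08 for Ddx58 and 0.06 for Sp100, below the median of all genes. Gbp2 (0.42), Iigp1 (0.40) and Samd9l (0.45) varied more (SD 0.27, 0.48 and 0.26) and followed the others less than most. Gbp2 and Samd9l had a negative r with each other (-0.16).

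The order depended on the cell type. Within the 6 B libraries the lowest median r were those of Sp100 (0.11), Iigp1 (0.14) and Parp14 (0.20), which had 0.75, 0.69 and 0.61 within the 6 T libraries. Within the T libraries the lowest were those of Irf9 (0.07), Ifitm3 (0.10) and Ddx58 (0.12), where the B libraries gave 0.82, 0.65 and 0.27. Ddx58 was thus low in both, and Trim30a was high in both (0.81 and 0.84). Each of these r rests on 6 deviations.

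Much of the shared movement rested on a pair of pools. Without male B cell 3 and male T cell 6, a choice made after the data were seen, the median r of the 40 genes was 0.39 (607 of 780 pairs positive, all genes 0.04). Without 1 library at a time it ran from 0.52, without male B cell 3, to 0.69, without female B cell 2. Without that pair of pools the counts between cell types were 22 genes higher in T and 11 higher in B cells.

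Other measures moved with some of these libraries. The summed level of 3 regulatory T cell markers was 20.97 in female T cell 6 and 17.2 in male T cell 6, against 1.75 to 3.14 in the other T libraries, and that of 4 memory or effector markers was 19.2 and 20.4 against 5.24 to 6.75. Of the regulatory list, Foxp3, the defining factor of these cells, had 2.57 in female T cell 6 and 1.82 in male T cell 6, against 0.440 to 0.735 in the other T libraries, and Ikzf2, a factor of the same cells, had 13.4 and 11.3 against 1.07 to 2.07. Il2ra, which encodes CD25, had 4.999 and 4.11 against 0.158 to 0.340, so its RNA was higher in these libraries although the sort was negative for CD25. Ifng, which is on the memory or effector list, was at most 0.107 in the T libraries. The sum of 5 genes of the dissociation stress response was 139.8 and 97.4 in these libraries, against 289 to 383 in the others. The sum of 5 monocyte and macrophage markers was 6.77 and 6.90 in the same libraries, against 2.52 to 3.26 in the others.

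In male B cell 3 the stress sum was 153.9, inside the range of the B libraries (111.3 to 318), and the erythroid sum was 98.2, where the others ran from 0.912 to 198.2. In male B cell 1 the erythroid sum (198.2) and the monocyte and macrophage sum (22.2) were the highest of the B libraries. The part of these measures in the swing was not tested. The other genes of the pathway moved less. Of 38 tested, 15 lay above the group mean in male B cell 3 and 28 in male T cell 6, with median deviations of -0.03 and 0.06.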

How the data were processed

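RNA of 12 libraries from pooled mouse spleen cells was sequenced, in 4 groups of 3 taken from the labels. Per the labels, strand-specific libraries were made after removal of ribosomal RNA. The submitters' processing notes name Trim Galore, FastQC and STAR and the build mm10. Not given in the sources used here are the quantifier, its annotation, how TPM was adjusted and what level the interval has. The table deposited by the authors holds a signal, the adjusted TPM, with a lower and an upper bound per library. It holds no read counts, so depth is unknown and precision was read from the bounds. Some label fields call the material genomic DNA, and the values were treated as RNA.

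Of 41128 genes, 12520 reached an adjusted TPM of 1 in 3 or more libraries and were tested. The tests were run with limma 3.58.1 (R 4.3.3) with a mean-variance trend on log2(adjusted TPM + 1), with a coefficient for each of the 4 groups and all 12 libraries in the fit, and p-values were Benjamini-Hochberg adjusted over the 12520 genes at a threshold of 0.05. The fit was tested on simulated data with independent noise for each gene and no pairing of pools. That test does not cover genes that move together or paired pools. Co-movement is the Pearson r of deviations from the own group mean, given as a description. Tables, windows and plots were made with Python 3.11.15, pandas 2.3.3, numpy 2.4.6, scipy 1.17.1 and matplotlib 3.10.9, and blastn 2.17.0 was used to find near-identical transcripts. Identifiers were matched to GENCODE M21 on GRCm38 (40254 of 41128, 97.9%), and promoters come from RefSeq on GRCm38.

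The genes and lists were chosen with earlier results of these data known. The rule named the 6 genes highest in each cell type, up to 10 called with the widest difference in each direction, every gene called between the sexes, the 6 with the largest SD within groups, and 4 pathway genes in each direction. The other genes of the 40 were added so that all are accounted for, and Ifnar1, Ifnar2, Stat2, Ifng and Ifnk were named after their values were seen. Deviations of female and male libraries with the same number correlated across genes with r of 0.72, 0.55 and 0.52 in T cells and -0.17, -0.04 and -0.34 in B cells. By the rule that every r be above 0.1 the T cell numbers were taken as paired and the B cell numbers not, from the data alone. The main fit held no block, so its p-values treat the T cell pools as separate. Alternatives were other pseudocounts, filters and scalings, limma without the trend, the replicate block, fits within 1 sex or cell type, and leaving out each library.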

Additional observations from a re-analysis of the deposited data

Results flagged for a closer look

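A sample far from the others was looked for in the 6 libraries of each cell type, for each of the 40 genes (80 groups of 6 values). The highest or lowest value was picked out where its gap to the nearest value took more than 0.625 of the whole range. Chance picks out about 1 in 20 groups, and 1 of the 80 was picked out. Irf7 had 66.2 adjusted TPM in male T cell 6, where the other 5 T libraries lay between 37.8 and 45.5, a gap of 0.730 of the range. In the same library 38 of the 40 genes lay above the mean of their group.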

How the results depend on the processing

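No gene of the 40 was called between the sexes or in the difference of the sex effects under any alternative run. The number called between B and T cells (32) was 28 to 33 under the other scalings, filters, fits and left-out libraries, and 16 (3 higher in B, 13 higher in T cells) with a log2 difference of at least 1. Rescaling every library to a total of 1000000 moved the median difference of all genes by 0.34 toward B cells and the part of all calls that favoured B cells from 43.0% to 70.8% (31.3% to 39.3% among the 40 genes). On that scale 8 genes changed sign, namely Isg20 (0.32), Irf9 (0.0568), Oasl2 (0.13), Rsad2 (0.15), Ifi35 (0.26), Ddx58 (0.28), Parp14 (0.35) and Irgm1 (0.10), of which Irf9 alone had been called, and the cause was not tested. Uncalled genes also changed sign with median-ratio scaling (Isg20 0.0678, Parp14 0.0581), with quantile normalization (Parp14 0.0237), within females (Isg20 0.0081, Oasl2 0.0244), within males (Rsad2 0.14, Parp14 0.0128) and without male B cell 3 and male T cell 6 together (Isg20 0.0681, Oasl2 0.10, Rsad2 0.0667, Parp14 0.0024), and Isg20 ran from -0.0784 to 0.0509 when 1 library was left out. With the replicate number as a block, which pairs the T cell pools by the data and only shares a number in B cells, 31 genes were called between the cell types (9 higher in B, 22 higher in T cells) and 0 in each sex contrast and in their difference, and Dhx58 was the call lost. The filter of at least 1 in 6 libraries left out Ifitm3. The median r of the 40 genes was 0.57 to 0.65 for left-out libraries other than male B cell 3 (0.52), female B cell 2 (0.69) and male B cell 2 (0.67), and 0.39 without male B cell 3 and male T cell 6 together, an alternative added after the data were seen. Depth is unknown, and values under 1, such as those of Iigp1 in B cells and Ifitm3 in T cells, have wide deposited intervals.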
